A study of Rattus norvegicus with 6 samples.

Results

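Triglyceride synthesis from glycerol 3-phosphate was followed in liver RNA through 9 genes, Gpam, Gpat4, Agpat2, Agpat3, Lpin1, Lpin2, Dgat1, Dgat2 and Mogat1, taken by gene symbol from the 32930 genes of the deposited expression table. Each symbol had 1 row. There were 3 libraries from animals on a high-fat diet with 0.5% CMC-Na, a cellulose vehicle (HFD group), and 3 from animals on the same diet treated with the herbal formula Huazhuo Tiaozhi granule (HTG group). The series' design text gives 12 weeks of intervention for both groups. In the study's rat experiment, by contrast, the diet ran for 12 weeks and gavage began only after its first weeks, with the drugs taken up in 0.5% CMC-Na, and which schedule these libraries followed could not be settled. All 6 livers thus carried the high-fat diet, and no normal-diet library was in the series. The sample titles name the treated group HTG, while its treatment label reads HCG. The labels give the species as rat and a rat genome build, the study's sequencing methods name C57BL/6 J mice, and every gene row has a mouse Ensembl identifier, and the rows are described here under their mouse names. Strain, age, sex, dose and any pooling of animals are not given in the labels of these libraries. The design text speaks of 6 animals, but no label ties a library to 1 animal, so p-values measure only the spread between these libraries, which may be technical.

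Hepatocytes build triglyceride by adding fatty acids to a glycerol backbone in sequence. Glycerol-phosphate acyltransferases (GPAT, here Gpam in mitochondria and Gpat4 in the endoplasmic reticulum) make lysophosphatidate, and AGPAT enzymes acylate it to phosphatidate. Lipins remove the phosphate to give diacylglycerol, and DGAT enzymes add the last fatty acid. MOGAT enzymes reach diacylglycerol by a side route, from monoacylglycerol. Lipin 1 also acts in the nucleus as a coactivator with PGC-1α and PPARα, and the pathway supplies the triglyceride stored in lipid droplets and exported in VLDL, so it is of interest in fatty liver.

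The libraries held between 12662195 and 22640869 fragments, taking 4 counts as 1 fragment, and HTG library 3 was the smallest. Hepatocyte markers summed to between 42106 and 47146 FPKM (fragments scaled by transcript length and library size) in the HFD group and between 37534 and 42260 in the HTG group. Alb had the highest mean of these markers in both groups. By edgeR's fit, 6 of the 9 markers tested were lower in HTG and 3 were higher. At an unadjusted p under 0.05 in edgeR, Cps1 (log2 fold change -1.62) and Apob (-1.05) were lower and Apoa2 (0.85) was higher, beside 12.4% and 12.3% of all genes tested. Markers of adipocytes, which use the same enzymes, summed to between 4.65 and 5.24 FPKM in the HFD group and between 8.47 and 16.4 in the HTG group. Of the 7 adipocyte markers listed in the table, Adipoq was at 0 in all libraries, Plin1 reached at most 0.03 FPKM, and most of the sum came from Adrb3 and Lipe. The difference between the groups lay mostly in Adrb3, at 1.92 ± 0.290 FPKM in HFD and 9.26 ± 3.81 in HTG. Lipe was nearly level, at 3.11 ± 0.0954 and 3.18 ± 0.670 FPKM (SD, n = 3 per group). Macrophage and leukocyte markers summed to between 411 and 674 FPKM in the HFD group and between 274 and 538 in the HTG group. Lyz2 had the highest mean of these 8 markers in both groups, 239 ± 62.0 FPKM in HFD and 137 ± 42.5 in HTG (SD, n = 3 per group). By fitted level, 6 of the 8 were lower in HTG, as were 8933 of the 18455 genes tested, and 2, C1qa and Ptprc, were higher. The largest difference was that of Adgre1, with a log2 fold change of -1.53, whereas Clec4f (-0.08) and Cd74 (-0.11) were nearly level. The mRNAs encoded by mitochondria took between 4.82% and 6.31% of the counts in the HFD group and between 9.12% and 14.9% in the HTG group. The part of these shifts in the results was not tested, except that removing the mitochondrial rows before scaling left the tested members' calls as they were. In whole liver, fewer cells of a type and less RNA per cell cannot be told apart.

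Most of the pathway's abundant enzymes had lower mean levels in the HTG group, with the smallest p-values for Lpin1 (3.32-fold) and Dgat2 (1.84-fold), while Agpat2 and Dgat1 had nearly equal means. Of the 9 genes, 8 passed edgeR's expression filter and were tested among 18455 genes, with Mogat1 too low to be tested. By edgeR's quasi-likelihood fit, with p-values adjusted by Benjamini-Hochberg over all genes tested, 0 of the 8 passed 0.05, a threshold that 0.0108% of all genes passed. At an unadjusted p under 0.05, 3 members (Lpin1, Dgat2 and Gpat4) were lower in the HTG group and 0 were higher, against 12.4% of all genes tested that were lower and 12.3% that were higher. With 1 library left out, the first count ran from 2 (without HTG library 3) to 5 (without HFD library 1). In DESeq2 the same 3 members were lower at an adjusted p under 0.05, as were 7.55% of the genes to which it gave an adjusted p. At an adjusted p under 0.1 in edgeR, Lpin1 and Dgat2 were lower and 0 members were higher, against 5.43% and 5.41% of all genes tested. The ranges of the groups did not overlap in 4 members, Lpin1, Dgat2, Gpat4 and Agpat3, all with HTG below HFD, in counts scaled to library size (CPM). Over all genes tested this was so for 15.5%, and HTG lay wholly above HFD for 16.5%. The 8 members had a median log2 fold change of -0.88 against 0.03 over all genes tested. A lower fitted level in the HTG group was found for 6 of the 8 and for 8933 of all 18455 genes tested. The members were chosen with earlier results of these libraries known, and the study itself drew Gpat4 and Lpin1 from them, so the counts are not independent evidence of a direction.

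On the FPKM scale, which allows levels of different genes to be compared, the HFD means ran in the order Dgat2 (134 ± 33.7), Agpat2 (68.0 ± 17.7), Gpam (52.8 ± 61.6), Lpin2 (35.2 ± 15.9), Gpat4 (26.4 ± 15.9), Agpat3 (24.8 ± 1.99), Lpin1 (12.5 ± 3.11) and Dgat1 (7.03 ± 1.78; SD, n = 3 for each). Because of HFD library 3, the spread of Gpam overlapped that of every other member, and Gpat4 did not differ beyond its spread from Lpin2, Agpat3 or Lpin1. Agpat2 lay below Dgat2 and Dgat1 below Lpin1 by more than their SDs. The HTG means ran in the order Agpat2 (73.7 ± 20.1), Dgat2 (70.8 ± 18.3), Lpin2 (19.1 ± 8.43), Gpam (18.4 ± 4.52), Agpat3 (18.3 ± 2.35), Gpat4 (11.6 ± 3.98), Dgat1 (7.04 ± 1.07) and Lpin1 (3.64 ± 1.04; SD, n = 3 for each). Agpat2 and Dgat2 did not differ beyond their spread there, nor did Lpin2, Gpam and Agpat3. Lpin1 was above Dgat1 in each HFD library and below it in each HTG library, and Dgat2 was above Agpat2 in every HFD library but only in library 2 of the HTG group. Summed over the 9 genes, the level was 273, 341 and 468 FPKM in the HFD libraries and 257, 228 and 184 FPKM in the HTG libraries. Every HTG sum was below every HFD sum, with a small margin between HFD library 1 and HTG library 1. The deposited FPKM carry no TMM scaling, and the sum of HFD library 3 includes Gpam at 124 FPKM.

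**Figure D1:**
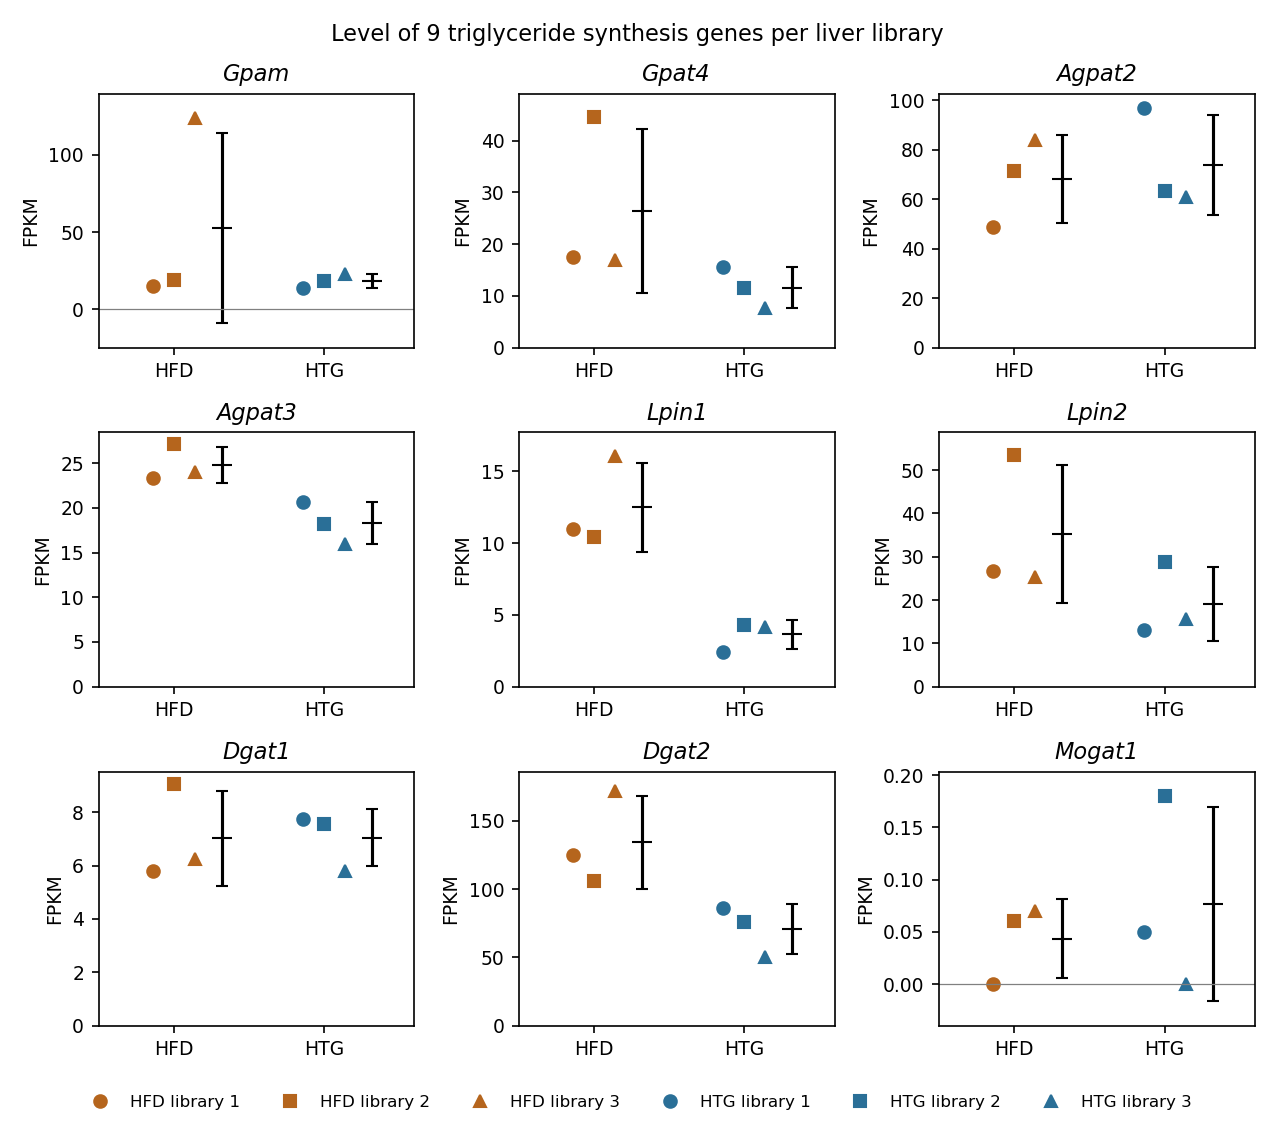
FPKM of the 9 genes in each of the 3 HFD and 3 HTG liver libraries, with a panel for each gene, a point for each library and the group mean ± SD beside the points. Lpin1 and Dgat2 lie lower in every HTG library than in any HFD library, the HFD mean of Gpam rests on library 3 at 124 FPKM, and Mogat1 stays at or below 0.18 FPKM.

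The GPAT step was dominated by 1 HFD library for each of its main enzymes. Gpam, the mitochondrial acyltransferase that competes with fatty acid oxidation for acyl-CoA (chromosome 19, 55055700 to 55115648, minus strand), stood at 15.4, 19.0 and 124 FPKM in HFD libraries 1, 2 and 3 and at 14.0, 18.2 and 23.0 FPKM in HTG libraries 1, 2 and 3. HFD library 3 was thus far above the other 5, which overlapped. The group means were 52.8 ± 61.6 and 18.4 ± 4.52 FPKM (SD, n = 3 per group). The log2 fold change of -1.44 (standard error 0.72) had an adjusted p of 0.263 in edgeR's quasi-likelihood test, and without HFD library 3 it was 0.12. The lipogenic regulator Srebf1 had 27.6, 14.0 and 69.3 FPKM in the HFD libraries and 40.4, 107 and 40.3 FPKM in the HTG libraries. HFD library 3 had the highest Srebf1 level of its group, and HTG library 2 had the highest of all 6 libraries. Insig1, a sterol-sensing partner of the SREBP pathway, was also highest in HFD library 3, at 143 FPKM against at most 54.1 FPKM elsewhere (named after its values were seen). The part of these regulators in the Gpam level was not tested.

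Gpat4, the GPAT of the endoplasmic reticulum that also acts on growing lipid droplets (chromosome 8, 23661281 to 23698362, minus strand), had 17.5, 44.7 and 17.0 FPKM in the HFD libraries and 15.6, 11.6 and 7.59 FPKM in the HTG libraries. The groups did not overlap, but HFD libraries 1 and 3 lay close above HTG library 1. The log2 fold change was -1.19 (standard error 0.45, unadjusted p = 0.0275, adjusted p = 0.149 in edgeR's quasi-likelihood test). Without HFD library 2 it was -0.49, with an unadjusted p of 0.125 from edgeR. The unadjusted p was also over 0.05 without HTG library 2 (0.0739) and without HTG library 3 (0.0895), both from edgeR. The minor GPAT genes Gpat2 and Gpat3 had at most 2.32 and 4.25 FPKM. Summed over the 4 GPAT genes, the step had 35.8, 68.7 and 144 FPKM in the HFD libraries and 33.8, 34.3 and 34.0 FPKM in the HTG libraries. The HTG libraries were nearly equal, and HFD library 1 lay just above them.

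The AGPAT step had almost the same summed level in both groups, 101 ± 17.8 FPKM in HFD and 103 ± 21.6 in HTG (SD, n = 3 per group). Agpat2, whose loss in humans and mice causes lipodystrophy and fatty liver (chromosome 2, 26483069 to 26494344, minus strand), had 48.8, 71.4 and 83.8 FPKM in the HFD libraries and 96.9, 63.3 and 61.0 FPKM in the HTG libraries. These ranges overlapped, and the extremes were HFD library 1 and HTG library 1. Its log2 fold change was 0.16 with a 95% interval from -0.49 to 0.80 (adjusted p = 0.765 in edgeR's quasi-likelihood test). Agpat3, which also acts at the Golgi (chromosome 10, 78105012 to 78188276, minus strand), had 23.4, 27.1 and 24.0 FPKM in the HFD libraries and 20.7, 18.2 and 16.0 FPKM in the HTG libraries. Every HTG library lay below every HFD library by a small margin. The log2 fold change of -0.41 (standard error 0.20) had an unadjusted p of 0.0698 and an adjusted p of 0.242 in edgeR's quasi-likelihood test.

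Lpin1, the lipin induced in liver by fasting and glucocorticoids (chromosome 12, 16585670 to 16660967, minus strand), showed the largest difference of the members tested. It had 10.98, 10.46 and 16.1 FPKM in the HFD libraries and 2.44, 4.28 and 4.19 FPKM in the HTG libraries. The lowest HFD library lay well above the highest HTG library. The fitted level was 3.32-fold higher in HFD, a log2 fold change of -1.73 for HTG over HFD (standard error 0.27, 95% interval from -2.36 to -1.10). The adjusted p was 0.0538 in edgeR's quasi-likelihood test, and Lpin1 ranked at position 55 of the 18455 genes by p. Leaving out each library in turn kept the log2 fold change between -1.91 and -1.54, with an adjusted p between 0.042 and 0.188 from edgeR. Over all 17 alternative fits, 8 gave an adjusted p under 0.05, and all 17 gave an unadjusted p under 0.05. The counts behind it were between 506 and 2886.5 fragments per library, so counting error was small beside the spread between libraries.

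Lpin2, the most abundant lipin of these livers (chromosome 17, 71489555 to 71556812, plus strand), had 26.8, 53.5 and 25.2 FPKM in the HFD libraries and 13.0, 28.7 and 15.5 FPKM in the HTG libraries. The ranges overlapped, since HTG library 2 was above HFD libraries 1 and 3. The log2 fold change was -0.89 (standard error 0.40, unadjusted p = 0.0544, adjusted p = 0.213 in edgeR's quasi-likelihood test), and -0.38 without HFD library 2. HFD library 2 was thus the highest of all libraries for both Gpat4 and Lpin2. Lpin3 stayed between 0.70 and 1.88 FPKM. The 3 lipins together had 39.3, 64.7 and 43.0 FPKM in the HFD libraries and 16.7, 34.9 and 21.1 FPKM in the HTG libraries, so every HTG sum was below every HFD sum.

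Dgat2, the DGAT that draws mainly on newly made fatty acids in liver (chromosome 7, 98802865 to 98831926, minus strand), had the highest HFD level of the 9 genes. It had 125, 106 and 171 FPKM in the HFD libraries and 86.2, 75.6 and 50.5 FPKM in the HTG libraries. Every HTG library lay below every HFD library. The group means were 134 ± 33.7 and 70.8 ± 18.3 FPKM (SD, n = 3 per group), and the log2 fold change was -0.88 (standard error 0.25, unadjusted p = 0.00784, adjusted p = 0.0894 in edgeR's quasi-likelihood test). Leaving out each library in turn kept it between -1.10 and -0.69. Dgat1, an unrelated protein with the same activity that also re-esterifies fatty acids taken up by the cell (chromosome 15, 76386215 to 76396151, minus strand), had 5.78, 9.07 and 6.25 FPKM in the HFD libraries and 7.76, 7.55 and 5.81 FPKM in the HTG libraries. The HTG libraries lay inside the HFD range. Its log2 fold change was 0.03, with a 95% interval from -0.50 to 0.55.

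Mogat1, which encodes a monoacylglycerol acyltransferase (chromosome 1, 78487628 to 78514810, plus strand), was barely detected. HFD libraries 1, 2 and 3 held 0, 8 and 8 counts of it and HTG libraries 1, 2 and 3 held 7, 29 and 0, where an empty gene allows up to 12 counts (3 fragments, for counting error only). Only HTG library 2 was above that limit, and no fold change was computed. The gene BC035947 overlaps Mogat1 on the other strand and had 4, 4, 0, 4, 29 and 0 counts in the same order, and no source used here says if reads were counted by strand, so the counts of the overlapping genes cannot be told apart. Mogat2, which encodes another enzyme of this route, was low as well but passed the filter. It had 0.45, 0.07 and 1.34 FPKM in the HFD libraries and 0.16, 0.23 and 0.12 FPKM in the HTG libraries. The groups overlapped, and HFD library 3 was the highest. The log2 fold change of Mogat2 was -1.77 with a 95% interval from -3.75 to 0.21 (unadjusted p = 0.0732, adjusted p = 0.249 in edgeR's quasi-likelihood test).

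**Figure D2:**
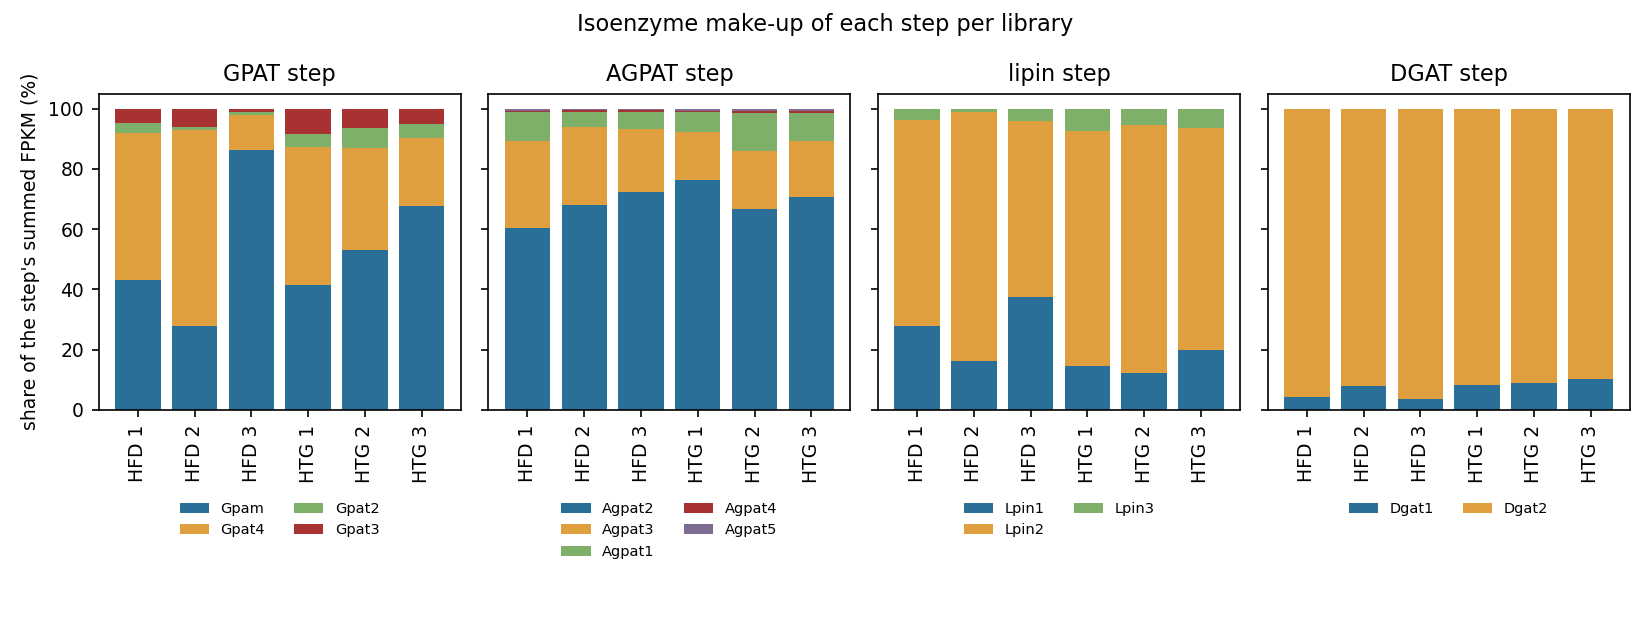
Share of each isoenzyme in the summed FPKM of its step, in percent, for each of the 6 libraries. Dgat2 makes up between 89.7% and 96.5% of the DGAT step and Lpin1 between 12.3% and 37.4% of the lipin step, and the GPAT step differs most between libraries.

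Isoenzyme make-up within a step was compared by the log2 ratio of its main enzymes on the FPKM scale, in 4 exact two-sided permutation tests, none of which can go below p = 0.1 with 3 libraries per group. Dgat2 exceeded Dgat1 by 21.3-fold, 11.6-fold and 27.0-fold in the HFD libraries and by 10.98-fold, 9.89-fold and 8.57-fold in the HTG libraries. The groups did not overlap, and the log2 ratio of Dgat1 over Dgat2 was higher by 0.95 in the HTG group (exact p = 0.1, adjusted p = 0.267 over the 4 ratios). The ratio of Lpin1 over Lpin2 was 0.412, 0.197 and 0.639 in the HFD libraries and 0.193, 0.152 and 0.275 in those of the HTG group, a difference in log2 of -0.89 with HFD library 2 inside the HTG range (exact p = 0.2, adjusted p = 0.267). Agpat2 over Agpat3 differed by 0.56 in log2 (exact p = 0.2, adjusted p = 0.267). Gpam over Gpat4 varied more within the HFD group, from 0.428 to 7.26, than between the groups, and its difference of 0.21 had an exact p of 0.9.

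**Figure D3:**
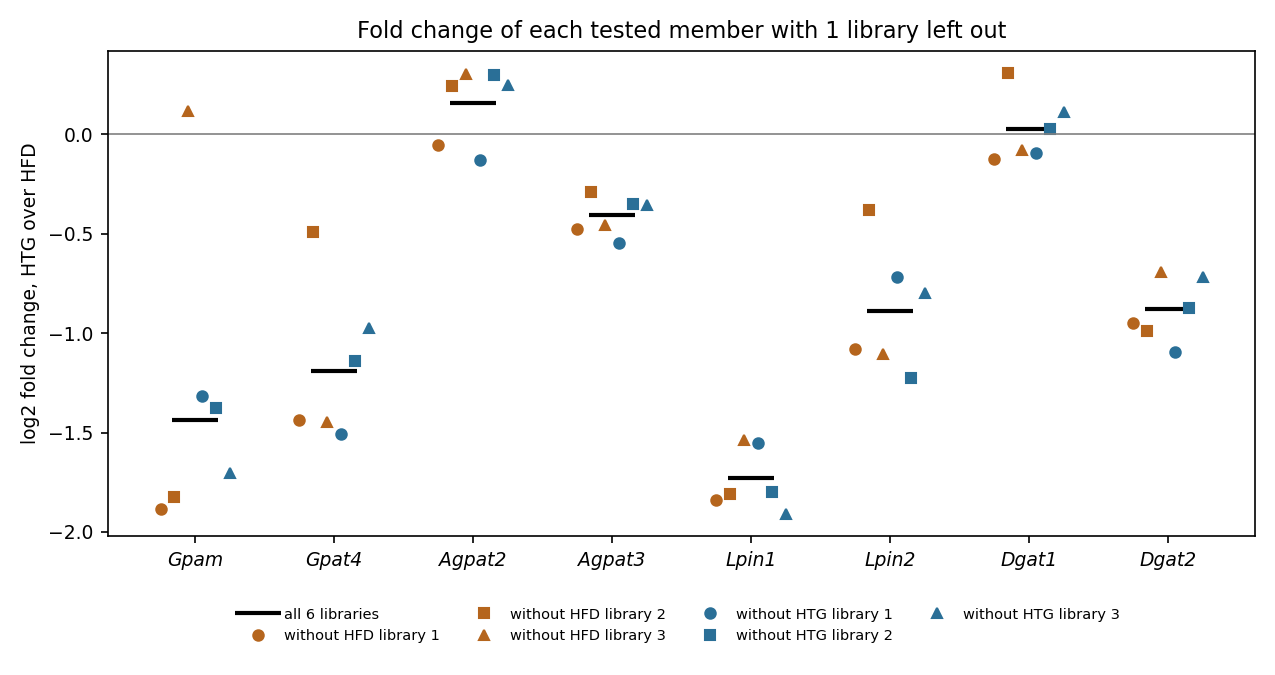
Fitted log2 fold change (HTG over HFD) of the 8 tested members with all 6 libraries (bar) and with 1 library left out (points). Lpin1 stays between -1.91 and -1.54, whereas Gpam moves to 0.12 without HFD library 3 and Gpat4 to -0.49 without HFD library 2.

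The genes around these steps were described with 5 lists of 47 genes in all, of which 44 were tested. At an unadjusted p under 0.05, 9 were lower and 3 were higher in the HTG group, beside 12.4% and 12.3% of all genes tested, and 0 had an adjusted p under 0.05 in edgeR's quasi-likelihood test. Their median log2 fold change was -0.24, against 0.03 over all genes tested. Of the 7 other enzymes of the same steps, 5 had a higher fitted level in HTG, as had 9522 of the 18455 genes tested. Agpat1 was higher in the HTG group, at 20.1 ± 2.43 CPM in HFD and 30.0 ± 4.79 in HTG (SD, n = 3 per group, log2 fold change 0.58, adjusted p = 0.101 in edgeR), and 0 of these 7 enzymes were lower at an unadjusted p under 0.05. For the handling of glycerol and glycerol 3-phosphate, 5 of 7 genes were tested. All 5 had a lower fitted level in HTG, as had 8933 of the 18455 genes tested, and 1, Gpd1l, had an unadjusted p under 0.05. Gpd1l, which makes glycerol 3-phosphate from a glycolytic intermediate, was lower at 30.6 ± 2.68 against 18.3 ± 3.32 CPM (log2 fold change -0.75, adjusted p = 0.0659 in edgeR). Its liver counterpart Gpd1 had a log2 fold change of -0.53 with a 95% interval from -1.20 to 0.13, and the glycerol kinase gene Gk had -0.72 with an interval from -1.86 to 0.42. Gk was highest in HFD library 2 at 25.1 FPKM, as Gpat4 and Lpin2 were (named after its values were seen).

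Another list held 19 genes for other uses of phosphatidate or diacylglycerol and for phospholipid synthesis, and 18 were tested. At an unadjusted p under 0.05, 4 were lower and 1 was higher, beside 12.4% and 12.3% of all genes tested. The lower genes were Pcyt1a, the rate-limiting step of phosphatidylcholine synthesis (log2 fold change -1.04), the lipid phosphate phosphatases Plpp3 (-0.90) and Plpp2 (-0.71), and Cds2, which turns phosphatidate into CDP-diacylglycerol (-0.64), with adjusted p-values between 0.0585 and 0.0892 in edgeR's quasi-likelihood test. The higher gene was Dgka, a kinase that turns diacylglycerol back into phosphatidate, at 7.98 ± 0.953 CPM in HFD and 13.9 ± 1.64 in HTG (SD, n = 3 per group, log2 fold change 0.80, adjusted p = 0.0637 in edgeR). Among 6 genes that regulate or partner lipins, Ctdnep1 and Cnep1r1, the phosphatase complex that dephosphorylates lipins, had log2 fold changes of -0.05 and 0.09, with 95% intervals from -0.43 to 0.34 and from -0.30 to 0.47. Ppara, the fatty acid receptor with which lipin 1 acts, was lower (log2 fold change -0.80, unadjusted p = 0.0392, adjusted p = 0.178 in edgeR), with overlapping groups. Ppargc1a, which encodes PGC-1α, had -0.40 with an interval from -1.08 to 0.29. Among 8 lipogenic regulators, Scap (-0.66), Insig2 (-1.25) and Pparg (-1.04) were lower at an unadjusted p under 0.05, as were 12.4% of all genes tested. The groups overlapped for Insig2 and Pparg. Mlxipl, which encodes the carbohydrate-sensing factor ChREBP, was higher at 358 ± 91.7 CPM in HFD and 873 ± 243 in HTG (SD, n = 3 per group, log2 fold change 1.29, adjusted p = 0.0613 in edgeR).

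**Figure D4:**
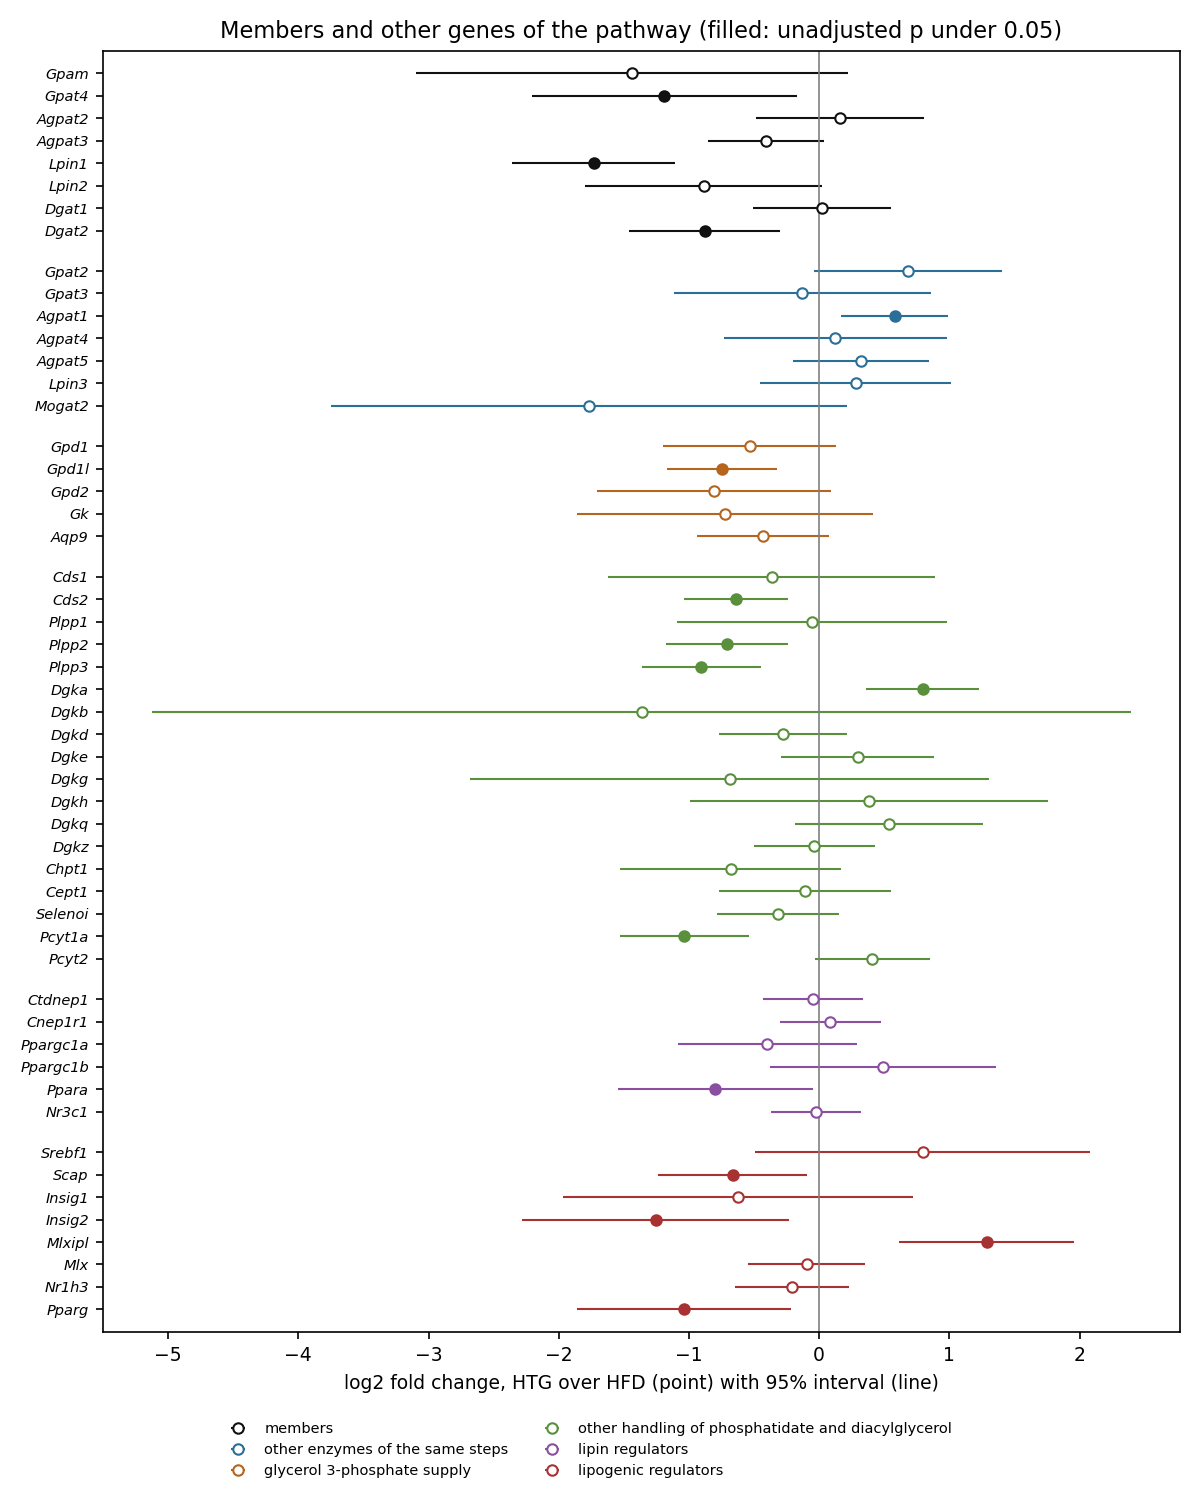
Log2 fold change (HTG over HFD) with its 95% interval for the 8 tested members and 44 other tested genes of the pathway, coloured by list and filled where the unadjusted p is under 0.05. The intervals of Lpin1, Dgat2 and Gpat4 lie below 0, and those of Gpam, Agpat2, Agpat3, Lpin2 and Dgat1 span it. Of the 44 other genes, 9 are filled below 0 and 3, Agpat1, Mlxipl and Dgka, are filled above it.

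The authors' table places all 9 members in the KEGG entry Glycerolipid metabolism. Of the 48 other genes of that entry, 42 were tested, 12 were lower and 3 were higher at an unadjusted p under 0.05, beside 12.4% and 12.3% of all genes tested. Their median log2 fold change was -0.28, against 0.03 over all genes tested. The higher genes were Agpat1, Dgka and Plpp5 (0.56), another lipid phosphate phosphatase. The lower genes included Pnpla2, the lipase that starts triglyceride breakdown (-0.91, adjusted p = 0.149 in edgeR), and Lclat1, an acyltransferase of lysophospholipids (-0.90, adjusted p = 0.0613 in edgeR). Also lower were the aldehyde dehydrogenase genes Aldh1b1, Aldh3a2, Aldh7a1 and Aldh9a1 and the aldo-keto reductase genes Akr1a1 and Akr1b7. These lower genes were named after their values were seen. Agpat1 and Dgka were also in the 5 lists above. The entry and those lists thus overlap, and their counts and medians are not independent of each other. The transcript length implied by the deposited counts and FPKM was 2.24 kb for Agpat2 and 3.22 kb for Dgat1, near 3.24 kb for Dgat2, and 10.4 kb for Lpin1 and 12.9 kb for Lpin2. Genes tested whose length was close to that of Lpin1 had a median log2 fold change of -0.07, and those near the length of Dgat2 had 0.00. With each library's trend on length removed, the log2 fold changes of Lpin1 and Dgat2 were -1.70 and -0.89.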

How the data were processed

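Per the labels, 3 HFD and 3 HTG libraries of liver RNA were sequenced, and samples were grouped by their titles. Per the study's methods, mRNA was selected with oligo(dT), the second strand was marked with dUTP and libraries were sequenced from both ends, whereas the labels name an NEBNext Ultra kit. The authors deposited an estimated count and an FPKM value for each gene and library, both without pooling. The submitters' processing notes name HISAT2, StringTie and SAMtools and the rat build mRatBN7.2, although the gene rows are mouse genes. The strand setting, annotation and filters are not given in the sources used here, and coordinates are printed as the table lists them, without a build. Deposited counts are whole numbers with low values in steps of about 4 (6450 values of 4 counts against 2549 of 3 and 1757 of 5).

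Counts were tested with edgeR 4.0.16 in R 4.3.3 (TMM scaling, filterByExpr, quasi-likelihood F-test, two-sided, group as the only term), and p-values were adjusted over the 18455 genes tested by Benjamini-Hochberg. Standard errors come from the F statistic, and CPM are scaled by TMM. FPKM ratios took a pseudocount of 0.1. Tested on simulated counts for this comparison, the fit gave an adjusted p under 0.05 to 73 of 100 genes changed by 2 in log2, to 12 of 100 changed by 1, and to 13 of 17594 unchanged genes. Alternatives were DESeq2 1.42.0, other filters and scalings, the replicate number as a block, leaving out each library, limma 3.58.1 on log2(FPKM + 0.1) and log2(FPKM + 1), counts divided by 4 and, added after the data were seen, removal of a length trend. Members and lists were chosen with earlier results of these data known, and the KEGG entry was added later. All members and, of the 5 pathway lists, the genes at an unadjusted p under 0.05 were to be named, with genes whose profile resembles a member's. Other genes of these lists are named for their role. Marker lists are given by their sums and the KEGG entry by its counts, both with some genes chosen after their values were seen.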

Additional observations from a re-analysis of the deposited data

How the results depend on the processing

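The count of members lower at an unadjusted p under 0.05 was 3 in the main comparison, 5 with DESeq2, 5 without an expression filter, and between 2 and 5 with 1 library left out (5 without HFD library 1). The count with an adjusted p under 0.05 was 0, against 3 with DESeq2. It was 1, Lpin1, with no expression filter, at least 10 counts in every library, limma on FPKM with either pseudocount, counts divided by 4, and the length trend removed, and between 0 and 1 with 1 library left out. No alternative gave a member that was higher at an unadjusted p under 0.05 (0 in each). The count of lower pathway genes outside the members was 9, against 12 with DESeq2. With 1 library left out it was between 6 (without HTG library 2 and without HTG library 3) and 11 (without HFD library 1). The count of higher pathway genes outside the members was 3, and between 3 and 5 with 1 library left out (5 without HFD library 3). The sign turned in members whose change was small or rested on 1 library: Gpam was 0.12 without HFD library 3, Agpat2 was -0.05 without HFD library 1 and -0.13 without HTG library 1, and Dgat1 was -0.12, -0.08 and -0.09 without HFD library 1, HFD library 3 and HTG library 1. Over these fits Gpam ranged from -1.88 to 0.12, Agpat2 from -0.13 to 0.30 and Dgat1 from -0.12 to 0.31. The difference in log2 ratio of Gpam over Gpat4 ranged from -0.64 to 1.40 with 1 library left out, with -0.12 without HFD library 1, -0.64 without HFD library 2 and -0.23 without HTG library 3, and the other 3 ratios kept their sign. The cause of these changes was not tested beyond the removal of the named library.

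Same-numbered libraries did not deviate together (r across genes of -0.08, -0.07 and 0.10 for numbers 1, 2 and 3), so the numbers were not read as pairs. With the replicate block, 4 members were lower at an unadjusted p under 0.05, and Lpin1 had a log2 fold change of -1.75 and an adjusted p of 0.143 in edgeR. Over all genes tested, 2 had an adjusted p under 0.05, against 2401 with DESeq2, 162 with no filter, 684 with at least 10 counts in every library, 822 with counts divided by 4, 878 and 884 with limma, 143 with the length trend removed, 14 without the mitochondrial rows, 0 with the block and between 0 and 653 with 1 library left out. Adjusted p-values near 0.05, such as that of Lpin1, therefore depend on the fit. Mogat1, with 0 to 29 counts, was too low to be tested.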

Other observations

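Among the 18447 other genes tested, those whose log2 CPM over the 6 libraries was most like that of Lpin1 were Pcdh9 (r = 0.998), Cd24a (r = 0.993) and Sft2d2 (r = 0.991). Those most like Dgat2 were the pseudogene Gm7816 (r = 0.999), Slc25a11, a mitochondrial carrier of 2-oxoglutarate (r = 0.995), and Plau (r = 0.993), and those most like Gpat4 were Tram2 (r = 0.990), Ncor1, a corepressor of nuclear receptors (r = 0.989), and Osbpl11 (r = 0.988). With 6 libraries in 2 groups such values are common: 301, 557 and 519 genes had r over 0.9 with Lpin1, Dgat2 and Gpat4. They are given as a description.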
